A study of Mus musculus with 3 samples.

Results

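The 10 genes described here encode the myosins, actins and myosin binding protein of heart muscle: the myosin heavy chains Myh6, Myh7 and Myh7b, the alpha actins Acta1 and Actc1, the myosin light chains Myl2, Myl3, Myl4 and Myl7, and the cardiac myosin binding protein C gene Mybpc3. They were chosen by gene symbol, and all 10 were found among 23740 probe sets with a mouse symbol, of 25206 on the array. The mice were C57BL/6N males between 8 and 12 weeks old, and the left ventricle was taken at day 14. Each of the 3 arrays was taken to hold a pool of 3 RNA samples, though the labels can also be read as 3 pools in all. Control mice carried a vehicle pump and were injected with saline. Iso mice carried a vehicle pump and were given isoproterenol, which stimulates beta-adrenergic receptors and serves here to injure the heart, at 50 mg/kg per day for 11 days. Iso+Insl6 mice received the same isoproterenol while a pump under the skin released INSL6, a hormone related to relaxin and insulin, at a daily dose of 50 to 70 nmol/kg. With 1 array per group no spread between animals was measured, no p-value can be given, and every difference below is between arrays.

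Force in the heart comes from myosin heavy chains that pull on actin filaments, with light chains wrapped around the myosin neck and myosin binding protein C controlling how many heads are free to bind. The adult mouse ventricle uses mainly the fast alpha heavy chain from Myh6, cardiac alpha actin from Actc1 and the ventricular light chains from Myl2 and Myl3. Beta heavy chain from Myh7, skeletal alpha actin from Acta1 and the atrial light chains from Myl4 and Myl7 are more prominent in the fetal ventricle, and in rodents Myh7 and Acta1 are widely used as markers of pathological growth of the ventricle.

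The 3 cardiac heavy chain genes each hold a microRNA, and the mature forms are shown because Mir208a, Mir208b and Mir499 have probe sets of their own beside those of their host genes. Capitals mark the seed, bases 2 to 8, and sequences and coordinates are RefSeq's, which held a mature form for 4 of the 7 muscle microRNA genes looked up. Those of miR-208a and miR-208b share all 7 seed bases, and miR-499 shares 6 of the 7 with both.
mmu-miR-208a-3p (GRCm38.p6, chr14:54949072-54949093, minus strand): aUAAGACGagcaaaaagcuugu
mmu-miR-208b-3p (GRCm38.p6, chr14:54975710-54975731, minus strand): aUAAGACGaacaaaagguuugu
mmu-miR-499-5p (GRCm38.p6, chr2:155622893-155622913, plus strand): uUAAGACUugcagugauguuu

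None of the 10 genes differed 1.5-fold between any pair of arrays. Values are log2 expression as deposited, a difference of 0.585 is 1.5-fold, and the median of all values, 4.16, served as the background level. Of the 8 genes above background, 0 passed 1.5-fold on Iso against Control, where 1.88% of 12415 genes above background did. Likewise 0 passed on Iso+Insl6 against Iso, where 1.99% of 12457 did, and 0 on Iso+Insl6 against Control, where 2.75% of 12420 did. At these shares an absence of calls among 8 genes does not set them apart from other genes. The medians of the 8 differences were 0.03, -0.015 and 0.00 in that order, and the median over all genes above background was 0.00 in each comparison.

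**Figure D1:**
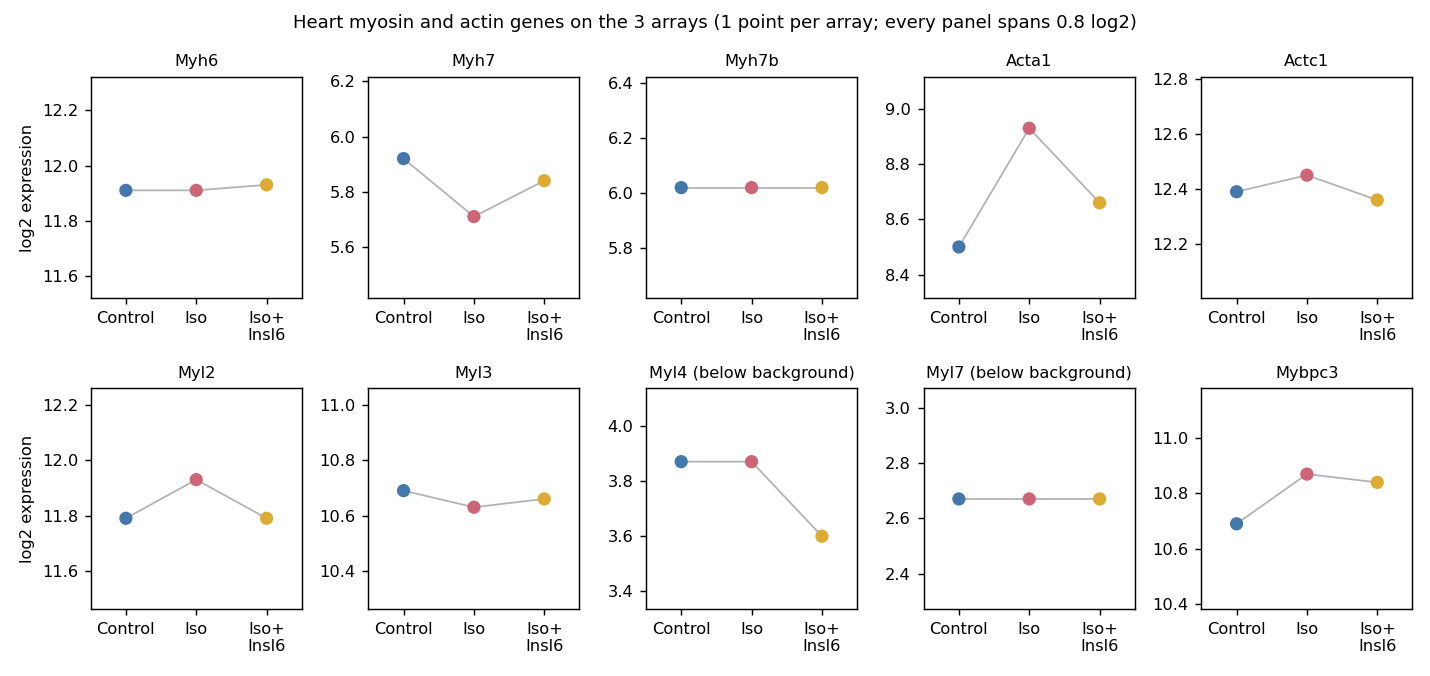
Log2 expression of the 10 genes by array, 1 point each for Control, Iso and Iso+Insl6, with every panel spanning the same range. Acta1 has the widest span, from 8.50 on Control to 8.93 on Iso, while Myh6, Myh7b and Myl7 lie flat, and Myl4 and Myl7 are below background.

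Among the motor genes, Myh6 stood at 11.91 on Control, 11.91 on Iso and 11.93 on Iso+Insl6. The listed value of this alpha heavy chain gene was thus equal on Control and Iso, as for 52.9% of genes above background. Such equality does not show equal RNA, and Myh6 ranked 10, 13 and 10 from the top on Control, Iso and Iso+Insl6. Its rank was thus lower on Iso. For Control against Iso+Insl6, where Myh6 held the same rank, the limit given below for Actc1 applies. Myh7, the beta heavy chain gene, stood at 5.92 on Control, 5.71 on Iso and 5.84 on Iso+Insl6, and was lowest on Iso. Its difference of -0.21 between Iso and Control, 1.16-fold, was equalled or exceeded in size by 12.9% of genes above background. Between Iso+Insl6 and Iso Myh7 differed by 0.13, a size reached by 18.6% of genes. Relative to Myh6, the Myh7 signal shifted by -0.21 from Control to Iso and by 0.11 from Iso to Iso+Insl6. After quantile normalization the shifts were -0.115 and 0.01, smaller than as deposited. The differences of Myh6 itself were then -0.08 and 0.08, and those of Myh7 -0.19 and 0.09. Myh7b, a further family member made in heart and slow muscle, stood at 6.02 on all 3 arrays. In whole tissue, fewer muscle cells and less RNA per muscle cell cannot be told apart.

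Myh6 and Myh7 are neighbouring genes on the same strand of chromosome 14, and the 250 bases before their starts are printed to show what the neighbours share. Capitals mark MCAT, the letters CATTCC on either strand, which TEAD factors bind in muscle genes. It lay at positions -206 to -201 in Myh6 and -201 to -196 in Myh7, counted from the start. RefSeq listed 2 starts for Myh7, and the one farther upstream is shown. The 250 bases before the other start held no MCAT, so the likeness of position depends on the start chosen.
Myh6 (GRCm38.p6, chr14:54966608-54966857, minus strand): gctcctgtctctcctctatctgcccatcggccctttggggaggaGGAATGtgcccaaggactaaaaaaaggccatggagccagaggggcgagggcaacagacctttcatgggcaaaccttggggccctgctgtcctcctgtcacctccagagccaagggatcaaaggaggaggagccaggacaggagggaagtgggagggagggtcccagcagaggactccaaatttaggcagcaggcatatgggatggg
Myh7 (GRCm38.p6, chr14:54994627-54994876, minus strand): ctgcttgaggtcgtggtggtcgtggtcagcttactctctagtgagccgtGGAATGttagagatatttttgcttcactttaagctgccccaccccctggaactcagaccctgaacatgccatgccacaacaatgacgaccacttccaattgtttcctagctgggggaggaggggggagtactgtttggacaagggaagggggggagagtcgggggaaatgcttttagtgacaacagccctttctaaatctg
MCAT was found in 5 of the 12 promoters that RefSeq lists for the 10 genes, those of Acta1, Myl3 and Myl7 besides these, and in 12.6% of 32851 RefSeq promoters of the same length. The match describes letters and not binding. The TEAD genes themselves differed little, with Tead1 at 8.60, 8.51 and 8.49 on Control, Iso and Iso+Insl6 and Tead4 at 5.13, 5.13 and 5.21.

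Only Mir208a of the 3 microRNA probe sets shown lay above background. Mir208a, inside Myh6, stood at 5.90 on Control, 5.90 on Iso and 6.11 on Iso+Insl6. The listed value of Mir208a was thus equal on Control and Iso, like that of Myh6, and then higher by 0.21 on Iso+Insl6. Mir208b, inside Myh7, stood at 1.85, 1.79 and 1.85, and Mir499, inside Myh7b, at 2.56, 2.17 and 2.17, both below background on every array, so no course can be read for them. Of the 7 microRNA genes measured, Mir133a-1 was the only other above background on any array, at 4.53, 4.40 and 4.10, and no difference among those above background reached 1.5-fold. Whether these probe sets read precursors or the surrounding introns was not tested.

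Acta1 differed most. This gene of skeletal alpha actin stood at 8.50 on Control, 8.93 on Iso and 8.66 on Iso+Insl6. Iso was highest, 1.35-fold above Control (0.43) and 1.21-fold above Iso+Insl6 (-0.27 for Iso+Insl6 minus Iso), and both comparisons share the Iso array. The Iso+Insl6 level thus lay 62.8% of the way from Iso back to Control. A difference at least as large in size as that of Acta1 was found in 3.88% of genes above background for Iso against Control, and in 7.35% for Iso+Insl6 against Iso. Among the 1350 genes with a mean level of 8 or more these shares were 3.11% and 2.59%, and 18.9% of them differed by at least the 0.16 of Acta1 between Iso+Insl6 and Control, against 17.6% of all genes above background. At a lower threshold of 0.322 on the log2 scale, Acta1 was the only gene of the 10 past it in any comparison, on Iso against Control, where 3.01% of genes were that much higher and 6.4% differed that much either way.

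Actc1, the cardiac alpha actin gene, stood at 12.39 on Control, 12.45 on Iso and 12.36 on Iso+Insl6. Its differences were 0.06 and -0.09, and it held the highest listed value of each array. Since the sorted values of the 3 arrays differ by at most 0.14 at any rank, a gene that keeps its rank can differ no more than that, and Actc1 kept rank 1. Relative to Actc1, the Acta1 signal shifted by 0.37 from Control to Iso and by -0.18 from Iso to Iso+Insl6, the latter -0.277 after quantile normalization. Promoters of both actins are shown because these closely related genes differed by unlike amounts, with capitals on the CArG box, the site of serum response factor.
Acta1 (GRCm38.p6, chr8:123894776-123895025, minus strand): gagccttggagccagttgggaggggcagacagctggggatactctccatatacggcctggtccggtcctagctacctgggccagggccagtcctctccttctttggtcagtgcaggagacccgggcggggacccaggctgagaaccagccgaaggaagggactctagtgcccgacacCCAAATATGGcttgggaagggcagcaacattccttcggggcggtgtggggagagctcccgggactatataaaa
Actc1 (GRCm38.p6, chr2:114052876-114053125, minus strand): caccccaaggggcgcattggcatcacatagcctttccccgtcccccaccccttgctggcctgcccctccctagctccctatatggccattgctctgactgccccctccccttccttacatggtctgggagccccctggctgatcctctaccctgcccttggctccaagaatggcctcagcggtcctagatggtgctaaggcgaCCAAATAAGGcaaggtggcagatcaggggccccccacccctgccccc
The box lay at positions -73 to -64 in Acta1 and -47 to -38 in Actc1. These and the positions below depend on the starts that RefSeq lists, which were not checked. Myl3 and Myl7 held it too, so that 4 of the 12 promoters did, and 1.47% of all RefSeq promoters. The other motifs searched were the E-box CANNTG, in 10 of the 12 and 66.2% of all, AGATAA for GATA factors, in 2 and 9.99%, and TATAAA, in 2 and 12.4%. Acta1 also held MCAT at -46 to -41 and TATAAA at -7 to -2. The gene of serum response factor, Srf, stood at 7.50, 7.17 and 7.19 on Control, Iso and Iso+Insl6, and its cofactor gene Myocd at 8.84 on every array.

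Of the other actin genes, Acta2 lay above Control on Iso like Acta1 and Actc1, and Actb lay below. Acta2, smooth muscle alpha actin, stood at 9.25, 9.60 and 9.40 on Control, Iso and Iso+Insl6, differences of 0.35 and -0.20. All 3 alpha actins of striated and vascular muscle were thus highest on Iso as deposited, Actc1 only before quantile normalization. Actb, the beta actin of non-muscle cells, stood at 9.71, 9.14 and 9.11, lower on both treated arrays. It differed from Control by -0.57 on Iso, inside 1.5-fold, and by -0.60 on Iso+Insl6, past it. Actins are alike over most of their coding sequence, and how far the probes separate them was not tested. Of 9 smooth muscle markers above background 2 were higher on Iso than on Control, Acta2 and Myh11, none lower and 7 the same, beside 19.7% of all genes higher and 27.3% lower by any amount. On Iso+Insl6 against Iso 4 were higher, among them Cnn1 (0.31), Tagln (0.28) and Myh11 (0.23), and only Acta2 was lower, beside 27.9% of all genes higher and 18% lower. On Iso+Insl6 against Control 5 were higher and none lower. The summed level of all 11 was 11.72 on Control, 11.79 on Iso and 11.77 on Iso+Insl6 as log2.

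**Figure D2:**
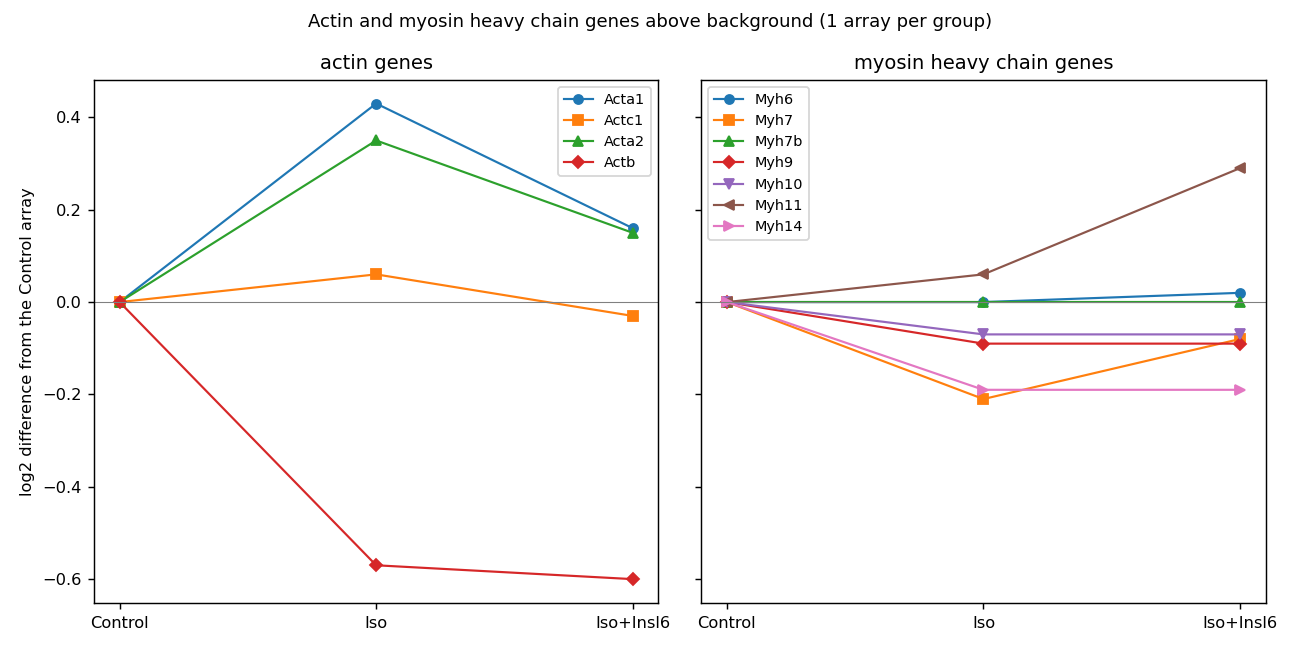
Log2 difference from the Control array for actin genes (left) and myosin heavy chain genes (right) above background, 1 line per gene and 1 array per group. Acta1 and Acta2 peak on Iso at 0.43 and 0.35, Actb lies at -0.57 and -0.60, and Myh6 and Myh7b stay within 0.02 of Control.

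The ventricular light chain genes were flat or nearly so. Myl2, the regulatory light chain of the ventricle, stood at 11.79 on Control, 11.93 on Iso and 11.79 on Iso+Insl6. It was higher on Iso by 0.14, 1.10-fold (0.07 after quantile normalization), and equal on the other arrays, and 20.1% of genes above background differed at least as much between Iso and Control. Myl3, the ventricular essential light chain, stood at 10.69, 10.63 and 10.66, with differences of -0.06 and 0.03. The gene pair thus took opposite directions on Iso, each by little.

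The atrial light chain genes lay below background throughout. Myl4, the atrial essential light chain, was listed at 3.87 on Control, 3.87 on Iso and 3.60 on Iso+Insl6. Myl7, the atrial regulatory light chain, was listed at 2.67 on all 3 arrays. No fold is given for either gene, since both levels compared lay below background. The mean of the atrial pair minus that of the ventricular pair shifted by -0.04 from Control to Iso and by -0.08 from Iso to Iso+Insl6, with the atrial side read at background. The other defining atrial genes Sln, at 1.93, and Bmp10, at 2.44, were also below background on every array, while 10 of 13 atrial markers, genes the ventricle can make too, were above it. The summed level of all 13 as log2 was 12.54 on Control, 12.69 on Iso and 12.92 on Iso+Insl6. Between Iso+Insl6 and Control the median difference of the 10 was 0.00, and Nppa (0.73) and Pam (0.49) differed most. All 8 ventricular markers outside the 10 genes were above background, with summed levels of 12.26, 12.35 and 12.31. Nppa, an atrial gene that the ventricle also makes, stood at 10.99, 11.19 and 11.72.

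Mybpc3, which ties myosin to the thick filament backbone and tunes its release, stood at 10.69 on Control, 10.87 on Iso and 10.84 on Iso+Insl6. Both isoproterenol arrays lay above Control, by 0.18 and 0.15, or 1.13-fold and 1.11-fold. A difference of at least that size was found in 15.6% of genes for Iso against Control. From Iso to Iso+Insl6 Mybpc3 differed by -0.03. Relative to Myh6, whose listed value was equal on Control and Iso, Mybpc3 shifted by 0.18 from Control to Iso.

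Among the 8 genes above background Iso was strictly the highest array for 4, Acta1, Actc1, Myl2 and Mybpc3. Iso was strictly highest for 10.2% of 12513 genes above background on any array and for 17.6% of the 1350 with a mean level of 8 or more. Control was strictly highest for 2 of the 8, Myh7 and Myl3, and for 16.9% of the 12513 genes. Iso+Insl6 was strictly highest for Myh6 alone and for 15.1% of the 12513 genes, while 42.7% of the 12513 genes, Myh7b among them, had the same listed value on all 3 arrays. All but Acta1 of the 4 genes highest on Iso differed from Control by 0.18 or less. After quantile normalization the Actc1 differences were 0.00 in every comparison, so Actc1 was then not highest on Iso.

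**Figure D3:**
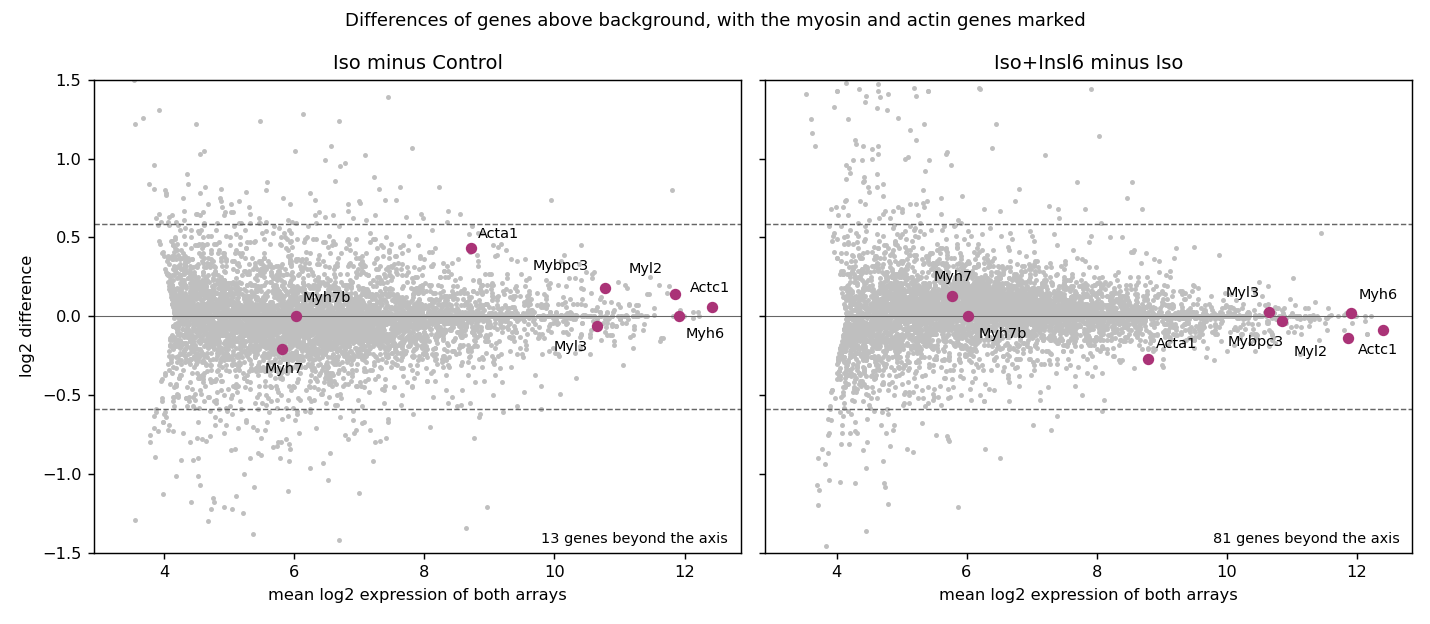
Log2 difference against mean log2 expression for genes above background, Iso minus Control (left) and Iso+Insl6 minus Iso (right), with 1.5-fold as dashed lines and the 8 myosin and actin genes above background in purple. All 8 lie inside the dashed lines, and Acta1 lies farthest out, at 0.43 and -0.27.

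The other thin filament, thick filament and M-band genes listed also stayed inside 1.5-fold. Tcap, the titin cap gene, is given below with the cardiac muscle markers and passed it on Iso against Control. Of 17 thin filament genes, all above background, 7 were higher and 4 lower on Iso than on Control, none by 1.5-fold, with a median of 0.00. Over all genes above background 19.7% were higher by any amount, 27.3% lower and 52.9% the same, and 1.5-fold was passed upward by 0.846% and downward by 1.03%. Lmod3, a leiomodin that lengthens actin filaments, was highest at 0.30 and slow troponin T, Tnnt1, lowest at -0.23. The cardiac troponin genes Tnnt2 and Tnni3 stood at 12.22 and 11.97 on all 3 arrays. On Iso+Insl6 against Iso 3 of the 17 were higher and 8 lower, with a median of 0.00, where 27.9% of all genes were higher, 18% lower and 54.1% the same. Thick filament and M-band genes other than Mybpc3 ran from -0.21 (Obsl1) to 0.05 (Ttn) on Iso against Control, with 6 of 8 above background, 1 higher, 4 lower and a median of -0.04. On Iso+Insl6 against Iso 4 of these 6 were higher and 1 lower, and the median was 0.02.

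Among genes that act on myosin Mylk4 differed most. Mylk4, a light chain kinase of heart and skeletal muscle, stood at 9.16 on Control, 8.52 on Iso and 8.86 on Iso+Insl6, 1.56-fold lower on Iso than on Control and 1.27-fold higher on Iso+Insl6 than on Iso. Mylk3, the cardiac light chain kinase, stood at 9.93, 9.69 and 9.77, so both genes were lowest on Iso. The targets of these kinases, the regulatory light chains, include Myl2, which was highest there. Of 12 genes for myosin assembly and phosphorylation, all above background, 4 were higher and 4 lower on Iso than on Control, with Mylk4 the only gene past 1.5-fold and a median of 0.00. Over all genes above background 19.7% were higher and 27.3% lower, and 1.03% passed 1.5-fold downward. The chaperone gene Unc45b, which folds the myosin head, stood at 7.71 on all 3 arrays.

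Among smooth muscle and non-muscle actomyosin genes 3 of 10 above background were higher and 6 lower on Iso than on Control, with a median of -0.08, beside 19.7% of all genes higher and 27.3% lower. Myl12a, a non-muscle regulatory light chain, stood at 5.59, 4.92 and 5.24. It was 1.59-fold lower on Iso, the only gene of the list past 1.5-fold there, where 1.03% of all genes were that much lower. On Iso+Insl6 against Iso 5 of the list were higher and 2 lower, with a median of 0.03, beside 27.9% of all genes higher and 18% lower. None differed by 1.5-fold (1.49% of genes were that much higher and 0.506% that much lower). Skeletal myosin genes lay mostly below background, 8 of 11 on every array, including the heavy chains Myh1, Myh2 and Myh4. The fast skeletal light chain Myl1, at 6.74, 6.32 and 6.24, was lower by 0.42 on Iso than on Control, 1.34-fold. Of 13 skeletal muscle markers 11 lay below background on all arrays and Tnnt3 and Tnnc2 within 0.03 of Control. With so few of these markers above background, the part of skeletal muscle RNA in the Acta1 values was not tested.

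Transcription factors that act on these genes differed by small amounts. Of 22 above background 5 were higher and 12 lower on Iso than on Control, none by 1.5-fold, beside 19.7% of all genes higher and 27.3% lower. On Iso+Insl6 against Iso 10 were higher and 4 lower, again none by 1.5-fold, beside 27.9% of all genes higher and 18% lower. Past 1.5-fold either way were 1.88% and 1.99% of all genes in that order. Srf differed most downward on Iso at -0.33. Klf15, a repressor of hypertrophic growth that is also induced by glucocorticoids and fasting, stood at 5.93, 6.25 and 6.57, and was the only gene of the 22 past 1.5-fold on Iso+Insl6 against Control, where 1.96% of genes were that much higher. The receptors of thyroid hormone act on the balance of alpha to beta heavy chain. Their genes stood at 8.17, 8.14 and 8.15 (Thra) and at 6.61 on all arrays (Thrb). Myh6 differed by 0.00 and 0.02 and Myh7 by -0.21 and 0.13, and a link to the receptor genes was not tested.

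**Figure D4:**
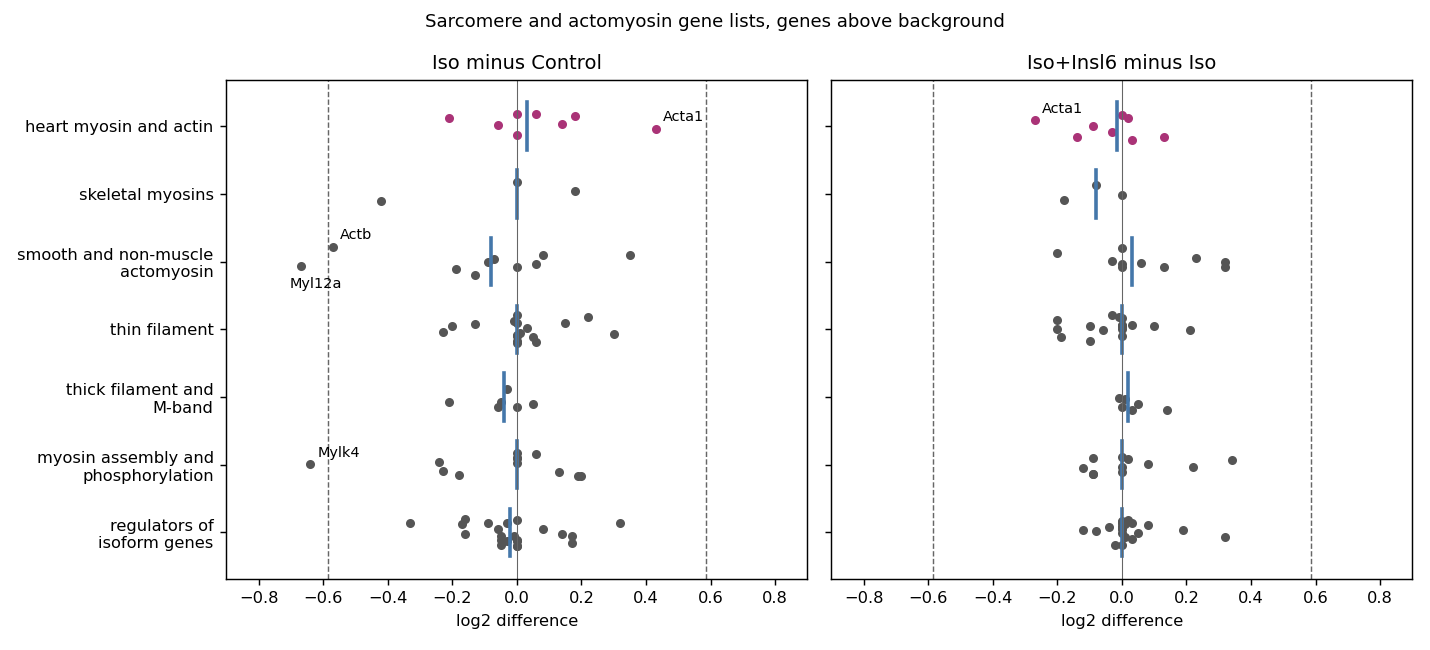
Log2 differences of genes above background in 7 lists, Iso minus Control (left) and Iso+Insl6 minus Iso (right), 1 point per gene, vertical bars at list medians and dashed lines at 1.5-fold; the 10 genes are left out of the other lists. Mylk4 (-0.64) and Myl12a (-0.67) are past 1.5-fold on Iso against Control and no listed gene is on Iso+Insl6 against Iso.

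The genes whose course was most like that of Acta1, measured as the distance between pairs of differences over the 3 arrays, were Cwc22 (5.04, 5.47 and 5.21), Ddit3 (5.69, 6.11 and 5.86), Trav13-1 (4.52, 4.92 and 4.66), Kcne1 (4.57, 5.03 and 4.78) and Morf4l1 (5.70, 6.17 and 5.89). Their distances were 0.01 to 0.04 log2, and 25 of 12512 genes, 0.2%, lay within 0.1 of Acta1. No other of the 10 genes above background spanned 0.3, the least span for which neighbours were sought.

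Markers of other cell types differed between the arrays. All 16 hepatocyte markers were at least 1.5-fold higher on Iso+Insl6 than on Iso, with a median of 2.33, beside 1.49% of all genes. Their summed level as log2 was 10.53, 10.43 and 12.75 on Control, Iso and Iso+Insl6. That of 15 cardiac muscle markers outside the 10 genes was 15.26, 15.28 and 15.27. In that list Tcap, the titin cap gene, was alone past 1.5-fold, at 9.58, 10.32 and 10.35. Clock genes differed between Control and the treated arrays, with Arntl at 7.07, 4.11 and 4.08. On Iso against Control 8 of 16 were at least 1.5-fold higher and 3 lower, beside 0.846% and 1.03% of all genes. Fibroblast markers had summed levels of 11.56, 11.64 and 11.72 and endothelial markers of 11.83, 11.72 and 11.69, all 10 of each above background. The 9 macrophage markers measured, all above background, had 9.44, 9.48 and 9.50. Such sums weigh abundant genes most. The median of the 10 fibroblast markers was 0.16 on Iso and 0.24 on Iso+Insl6 against Control, with 3 and 2 of them lower. Past 1.5-fold on Iso against Control were Pi16 (0.61, fibroblast), Lgals3 (0.71, macrophage) and Kdr (-0.61, endothelial). On Iso+Insl6 against Control the fibroblast markers Postn (0.69) and Lum (0.66) passed it, as did Lgals3 (0.87) and Kdr (-0.82). Over all genes above background 2.75% passed it either way in that comparison. The part of all these marker differences in the values of Acta1, Mybpc3 and Myh7 was not tested.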

How the data were processed

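The values are log2 levels that the authors deposited for 3 arrays of pooled left ventricle RNA. Per the submitters' processing notes RMA was used, with version 1.36.1 of affy; array type, probe design and settings are not given in the sources used here. RMA as published summarises probes by median polish, which can return exactly equal values for arrays whose probes differ, so equal listed values do not show equal RNA. Probe sets are named by Entrez gene number, and symbols came by that number from RefSeq (GRCm38.p6), which named 23740 of 25206. All 3 columns were matched to samples and 0 were left out.

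Differences were taken on the log2 scale between each pair of arrays, without a test, since each group has 1 array. Counts cover genes whose higher level of those compared reached 4.16, the median of all values. Named were all 10 genes and the 5 nearest genes in course for any gene spanning 0.3. From other lists, members past 1.5-fold and some with the largest differences were named. Exceptions were the hepatocyte markers and, but for Arntl, the clock genes, which were only counted or summed. Other genes were added for their roles after their values had been seen. The genes and the 18 lists were chosen with earlier results of these data known. Alternatives were thresholds of 0.322 (log2) and 2-fold, no filter, a mean level of at least 8, cyclic loess and quantile normalization (limma 3.58.1, R 4.3.3) and centring on genes above background or on cardiac muscle markers. Counting and likeness were tested on simulated data (Python 3.11.15). Precision is limited by the number of arrays, and a pool shows no spread between animals. Actg1, Myl6, Fabp3 and Lyz2 were not analysed here.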

Additional observations from a re-analysis of the deposited data

How the results depend on the processing

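The count of heart myosin and actin genes past 1.5-fold stayed at 0 in each comparison with a 2-fold threshold, without the filter, at a mean level of 8 or more, and under both normalizations and both centrings. At a lower threshold of 0.322 on the log2 scale it became 1 on Iso against Control, Acta1. The Myh7 shift relative to Myh6 from Iso to Iso+Insl6, 0.11 as deposited, was 0.01 after quantile normalization, and that from Control to Iso went from -0.21 to -0.115. The Myh6 differences went from 0.02 to 0.08 and from 0.00 to -0.08 in that order, and those of Myh7 from 0.13 to 0.09 and from -0.21 to -0.19. Why they moved was not tested. The Acta1 shift relative to Actc1 from Iso to Iso+Insl6 went from -0.18 to -0.277 and that of atrial light chains from Control to Iso from -0.04 to -0.002. Medians of the genes and the other pair shifts moved by less than 0.1 log2. Single differences moved by at most 0.09 (quantile normalization), 0.03 (centring on genes above background), 0.01 (centring on cardiac muscle markers) and 0.00 (cyclic loess), and that of Myh6 between Iso+Insl6 and Iso turned from 0.02 to -0.01 when centred on genes above background. Among the other sarcomere and actomyosin lists the 2 genes past 1.5-fold on Iso against Control became 5 at the lower threshold, 0 at 2-fold and 1 at a mean level of 8 or more. On Iso+Insl6 against Iso their count of 0 became 1 at the lower threshold, and on Iso+Insl6 against Control 1 became 4 at the lower threshold and 0 at 2-fold. No paired analysis was possible because each group has 1 array, and none could be left out. A difference of 0.01 can come from rounding alone, and no value has an error between mice.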

Other observations

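The myosin locus also holds Mhrt, a long non-coding RNA gene between Myh6 and Myh7 that overlaps Myh7. It was looked up after the other values had been seen. Mhrt stood at 10.43 on Control, 10.43 on Iso and 10.44 on Iso+Insl6, differences of 0.00 and 0.01, while Myh7 differed by -0.21 and 0.13. Mhrt is antisense to Myh7, and whether the probe sets keep the strands apart was not tested.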
